A study of Mus musculus with 8 samples.

Results

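The 34 transcripts described here are genes known from the cells of brain blood vessels, of 26062 gene IDs in the count table. They were chosen by symbol: 23 are endothelial (5 of junctions and the cell surface, 8 receptors and signalling proteins, 5 transporters of the blood-brain barrier and 5 others), and 11 are mural (7 of pericytes and 4 of smooth muscle). They were measured in RNA from microglia (macrophages that reside in brain tissue) of the lateral geniculate nucleus, which relays retinal signals in the thalamus. All mice were adult wild type male C57BL/6J animals of 2 to 3 months, and the cells were isolated on magnetic columns with beads against CD11b. There were 3 groups: uninjured mice (2 libraries), and mice at 1 day (3 libraries) and at 3 days (3 libraries) after both optic nerves were crushed. The sources used here do not state whether a library came from 1 animal or from a pool, so a p-value reflects how far these libraries vary, which may be technical variation alone.

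Endothelial cells line every vessel, and in the brain their tight junctions, carriers and efflux pumps form the blood-brain barrier. Pericytes wrap capillaries and smooth muscle cells wrap arterioles and arteries, and together these mural cells steady the wall and set its tone. The CD11b beads bind a surface protein of microglia and other myeloid cells, and how the vascular transcripts came into the preparation was not measured.

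Promoters are shown for 4 members that stand for the main vessel cell types in the results below. They are Slco1c1 and Flt1 of endothelium, Rgs5 of pericytes and Acta2 of smooth muscle. Each window runs from 250 bases before to 50 bases after the start of the gene (RefSeq, GRCm38.p6), 5′ to 3′ on the strand of the gene. The windows are chr6:141524104-141524403 on the plus strand for Slco1c1, chr5:147725962-147726261 on the minus strand for Flt1, chr1:169655251-169655550 on the plus strand for Rgs5 and chr19:34255324-34255623 on the minus strand for Acta2. Capitals mark GGAAG or its reverse complement CTTCC, the core that ETS factors such as ERG and FLI1 of endothelial cells recognise.
Slco1c1: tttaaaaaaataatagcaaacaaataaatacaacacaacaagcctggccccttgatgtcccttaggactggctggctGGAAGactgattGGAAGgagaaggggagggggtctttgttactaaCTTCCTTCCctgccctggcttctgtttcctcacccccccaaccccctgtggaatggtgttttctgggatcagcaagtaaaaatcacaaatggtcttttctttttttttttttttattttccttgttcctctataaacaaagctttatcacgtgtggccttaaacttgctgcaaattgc
Flt1: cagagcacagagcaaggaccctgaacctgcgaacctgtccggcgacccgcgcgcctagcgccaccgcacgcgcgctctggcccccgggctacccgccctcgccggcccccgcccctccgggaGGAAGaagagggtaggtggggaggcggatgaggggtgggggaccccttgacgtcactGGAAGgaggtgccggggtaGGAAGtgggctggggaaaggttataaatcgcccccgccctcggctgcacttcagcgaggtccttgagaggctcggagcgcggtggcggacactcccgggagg
Rgs5: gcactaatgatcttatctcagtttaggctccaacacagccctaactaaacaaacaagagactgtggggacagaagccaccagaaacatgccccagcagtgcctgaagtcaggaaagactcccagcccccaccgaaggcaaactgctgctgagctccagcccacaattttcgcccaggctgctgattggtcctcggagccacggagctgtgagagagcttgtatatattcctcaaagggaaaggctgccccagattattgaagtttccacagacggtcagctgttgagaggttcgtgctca
Acta2: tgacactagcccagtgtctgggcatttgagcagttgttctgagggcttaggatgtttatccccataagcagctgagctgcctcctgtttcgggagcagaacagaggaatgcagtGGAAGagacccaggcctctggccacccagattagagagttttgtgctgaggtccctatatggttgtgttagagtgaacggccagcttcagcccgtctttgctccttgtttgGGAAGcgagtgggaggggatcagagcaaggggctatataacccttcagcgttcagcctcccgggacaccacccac
The window of Slco1c1 held 4 matches, 2 of which overlap, that of Flt1 held 3, that of Acta2 held 2 and that of Rgs5 held 0. The Rgs5 window does hold GGAA followed by A, which did not count as a match. The motif GGAAG occurs in 71.4% of all 32851 windows of the table, in 13 of the 18 endothelial windows and in 2 of the 8 mural windows, where a gene can have more than 1 window and 23 of the 34 members had any. A match describes letters in this window and nothing about binding. No protein or site of binding was measured.

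Total counts were 17533499 and 17994861 in the uninjured libraries, while they ran from 12700098 to 15489477 at 1 day and from 13756487 to 14993580 at 3 days. Mitochondrial genes took 21.3% to 22.5% of the counts in uninjured libraries, 13.6% to 21.9% at 1 day and 22.8% to 30.3% at 3 days. Genes with a count numbered 22395 and 21663 in uninjured libraries, 18035, 18651 and 20220 at 1 day, and 20745, 21044 and 20632 at 3 days. Every library of day 1 thus had fewer detected genes than any other library, and the part of this in the vascular values was not tested. Of the marker lists of other cell types, the microglial one had the highest sum in every library but uninjured replicate 1, and lymphocyte markers did not pass 2.48 CPM in sum. Levels are CPM, that is, counts relative to the library total after TMM scaling, and a gene was called when the Benjamini-Hochberg adjusted p of edgeR's quasi-likelihood test over all 17390 tested genes was under 0.05.

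All 34 members were found in the table and passed the filter on low counts. Together they took 0.564% and 0.505% of the counts in uninjured libraries, 0.302%, 0.211% and 0.285% at 1 day, and 0.403%, 0.383% and 0.342% at 3 days. Detected in all 8 libraries were the defining endothelial genes Cldn5, Cdh5 and Pecam1 and the mural genes Pdgfrb and Rgs5, while Kcnj8 was at 0 in 1 library of day 1. Per kilobase of exon, Rgs5 was the most abundant member in uninjured libraries (220.0 CPM per kilobase), followed by the glucose transporter Slc2a1 (113), the receptor phosphatase Ptprb (60.5), Ly6c1 (57.5) and Flt1 (43.4). The lowest were Cspg4 (1.87 CPM per kilobase), Des (2.46) and Kcnj8 (3.29). Plvap, a gene of fenestrated vessels that barrier endothelium lacks, did not pass 1.04 CPM in any library.

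**Figure D1:**
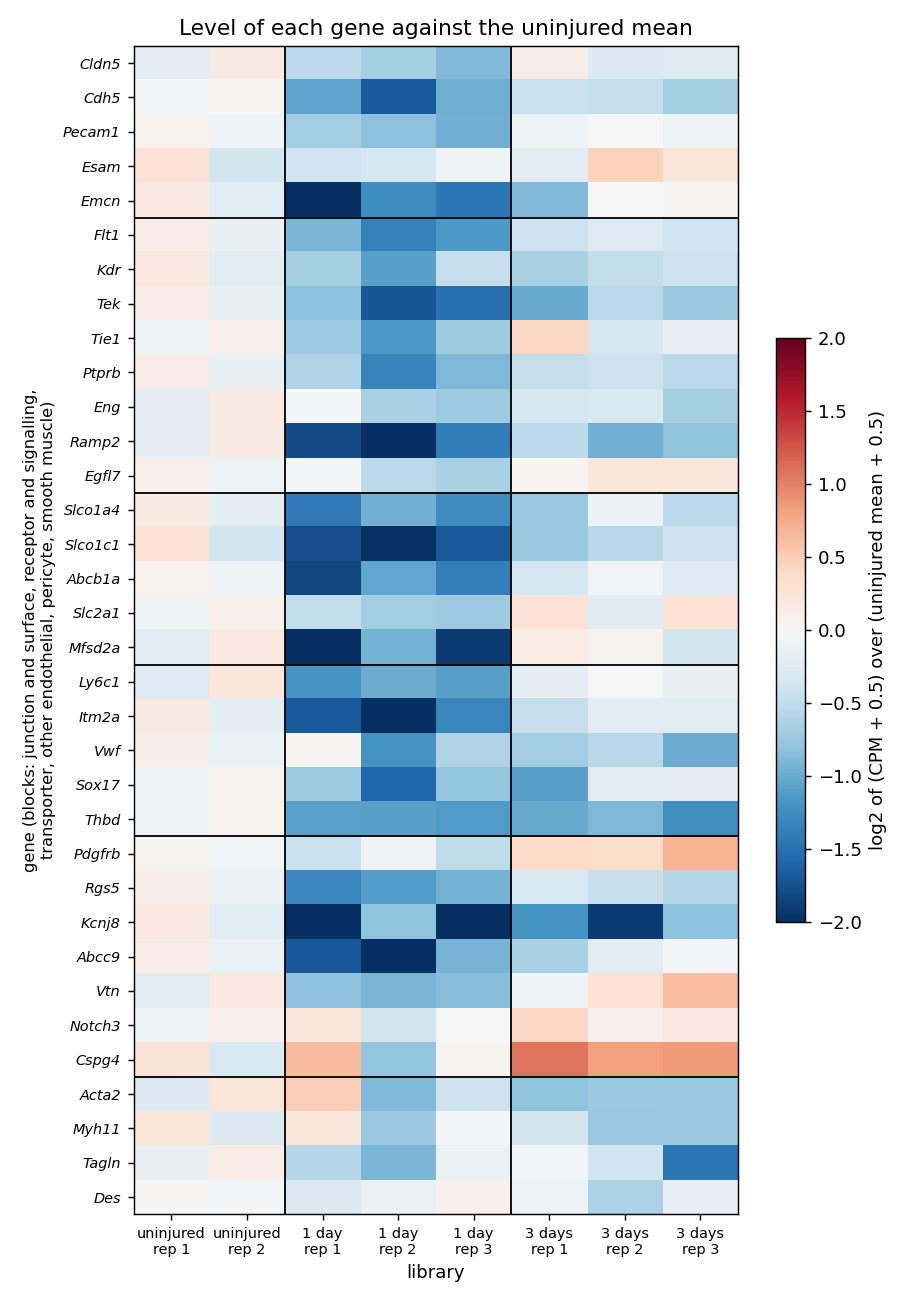
Heat map of the 34 members (rows, by list) in the 8 libraries (columns), as log2 of the level (CPM + 0.5) over the mean of the 2 uninjured libraries, with colours limited at -2 and 2. Most endothelial and pericyte rows are lowest in the 3 libraries of day 1, and the smooth muscle rows are not.

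At 1 day after the crush, endothelial transcripts were lower than in uninjured mice. Of the 23 endothelial members 13 fell and 0 rose, against 1.16% of all tested genes that fell and 0.61% that rose, and the estimate was negative for all 23. The median log2 fold change was -1.10 for the endothelial members and 0.06 for all tested genes. Of the 11 mural members, 1 fell (Rgs5) and 0 rose, with a median of -0.33. In 19 of 23 endothelial and 5 of 11 mural members every library of day 1 lay below both uninjured libraries, as it did for 15% of all tested genes. In bulk libraries fewer cells of a type and less RNA per cell cannot be told apart.

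Summed over the 23 endothelial members, the level was 2004, 1532 and 1721 CPM at 1 day, against 3614 and 3249 CPM in uninjured libraries, a ratio of means of 0.511. The 7 pericyte members summed to 573, 591 and 672 CPM at 1 day, against 1287 and 1120.2 CPM in uninjured libraries, a ratio of 0.508. These sums are led by a few abundant genes, Ptprb and Flt1 for endothelium and Rgs5 for pericytes. The 4 smooth muscle members summed to 413, 205 and 324 CPM at 1 day, against 380.2 and 312 CPM in uninjured libraries, and these groups overlapped. Myh11 led this sum, with a mean of 237 of 314 CPM at 1 day and of 259 of 346 CPM in uninjured libraries.

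Of the 5 transporters of the barrier 3 fell, and their median log2 fold change was -1.39, the lowest of the 6 member lists. Slco1c1, an organic anion carrier that takes thyroid hormone into the brain, had 37.0, 32.2 and 39.6 CPM at 1 day, against 157 and 99.3 CPM in uninjured libraries. That is a mean of 36.3 ± 3.77 CPM at 1 day (SD, n = 3) and 128 ± 41.0 CPM in uninjured libraries (SD, n = 2), and the log2 fold change was -1.82 (SE 0.22, adjusted p = 0.00132). The efflux pump Abcb1a (P-glycoprotein) had 42.8, 73.8 and 58.8 CPM at 1 day, against 160.1 and 146 CPM in uninjured libraries, and fell by 1.39 on the log2 scale (SE 0.22, adjusted p = 0.00541). For both genes the groups were apart, with every library of day 1 below either uninjured library. Slco1a4, a carrier of organic anions and a relative of Slco1c1, had 85.3, 118 and 97.5 CPM at 1 day, against 260.0 and 202 CPM in uninjured libraries (log2 fold change -1.20, SE 0.21, adjusted p = 0.00923). The other two carriers were lower in every library of day 1 and were not called by edgeR's test, while DESeq2 called both (adjusted p = 0.0225 for Slc2a1 and 0.00549 for Mfsd2a). Mfsd2a was also called by limma-voom (adjusted p = 0.0461) and with scaling by library size alone, and both were called with no filter. Slc2a1, the glucose transporter GLUT1, had 282, 246 and 239 CPM at 1 day, against 373 and 420.3 CPM in uninjured libraries (log2 fold change -0.63, SE 0.17, adjusted p = 0.0839). Mfsd2a, which carries lysophospholipids that bear docosahexaenoic acid and restrains transcytosis, had 4.44, 10.8 and 5.24 CPM at 1 day, against 18.1 and 24.2 CPM in uninjured libraries (log2 fold change -1.64, SE 0.42, adjusted p = 0.0628).

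Among the 5 genes of junctions and the cell surface, 3 fell. Cdh5, the adhesion protein VE-cadherin of adherens junctions, had 58.6, 37.6 and 61.4 CPM at 1 day, against 120.0 and 124 CPM in uninjured libraries, and its log2 fold change was -1.21 (SE 0.22, adjusted p = 0.0119). Pecam1, an adhesion protein that platelets and some leukocytes also carry, had 70.7, 64.5 and 58.1 CPM at 1 day, against 119 and 109 CPM in uninjured libraries (log2 fold change -0.82, SE 0.18, adjusted p = 0.0329). Emcn, a surface sialomucin of capillary and venous endothelium, had 6.08, 14.1 and 12.1 CPM at 1 day, against 39.0 and 29.0 CPM in uninjured libraries (log2 fold change -1.66, SE 0.39, adjusted p = 0.0455). None of these 3 genes had overlapping groups. Cldn5, the main claudin of barrier tight junctions, had 13.6, 12.4 and 10.5 CPM at 1 day, against 17.3 and 22.4 CPM in uninjured libraries, which was not called (log2 fold change -0.71, SE 0.34, adjusted p = 0.356). The groups overlapped for Esam, an adhesion protein of endothelial junctions, with 14.1, 14.5 and 17.7 CPM at 1 day and 23.1 and 14.3 CPM in uninjured libraries.

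Of the 8 receptors and signalling proteins, 4 fell. Flt1, a receptor for VEGF-A and placental growth factor, had 310.1, 230.0 and 264 CPM at 1 day, against 644 and 529 CPM in uninjured libraries, with means of 268 ± 40.2 CPM at 1 day (SD, n = 3) and 586 ± 81.5 CPM in uninjured libraries (SD, n = 2), and the log2 fold change was -1.13 (SE 0.16, adjusted p = 0.00321). Ptprb, a phosphatase that acts on Tek and on VE-cadherin complexes, had 529, 320.5 and 431 CPM at 1 day, against 888 and 724 CPM in uninjured libraries (log2 fold change -0.92, SE 0.18, adjusted p = 0.0210). Tek, the receptor of the angiopoietins, had 49.7, 26.6 and 30.8 CPM at 1 day, against 96.7 and 79.7 CPM in uninjured libraries (log2 fold change -1.31, SE 0.27, adjusted p = 0.0252). In these 3 genes, the highest library of day 1 stayed below the lowest uninjured one. Ramp2, which partners the receptor of adrenomedullin, had 6.00, 4.81 and 8.07 CPM at 1 day, against 19.3 and 24.6 CPM in uninjured libraries (log2 fold change -1.80, SE 0.39, adjusted p = 0.0339), but 1103 of its 3301 exonic bases overlap Vps25 on the same strand. The VEGF receptor Kdr and the orphan receptor Tie1 were below both uninjured libraries at 1 day but not called, with log2 fold changes of -0.74 (adjusted p = 0.229) and -0.87 (adjusted p = 0.199). Kdr had 24.7, 18.3 and 28.2 CPM at 1 day, against 45.2 and 33.9 CPM in uninjured libraries, and Tie1 had 17.8, 13.1 and 17.9 CPM at 1 day, against 27.9 and 31.3 CPM in uninjured libraries. For Eng, a co-receptor of TGF-beta ligands, and the secreted protein Egfl7, the groups overlapped, and their log2 fold changes were -0.44 and -0.39. Eng had 111, 71.6 and 67.9 CPM at 1 day and 99.8 and 126 CPM in uninjured libraries, and Egfl7 had 21.9, 15.2 and 14.1 CPM at 1 day and 24.0 and 20.7 CPM in uninjured libraries.

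Of the other 5 endothelial genes, 3 fell. Thbd (thrombomodulin, the thrombin cofactor that activates protein C) had 66.6, 66.1 and 63.3 CPM at 1 day, against 133 and 147 CPM in uninjured libraries, and its log2 fold change was -1.10 (SE 0.18, adjusted p = 0.00718). Ly6c1, a surface protein of mouse capillary endothelium, had 42.3, 48.1 and 45.0 CPM at 1 day, against 80.0 and 113 CPM in uninjured libraries (log2 fold change -1.10, SE 0.20, adjusted p = 0.0140). Its near copy in monocytes, Ly6c2, stayed between 0 and 0.722 CPM, although how reads were divided between the copies is not given in the sources used here. Itm2a, a membrane protein enriched in brain endothelium, had 13.9, 8.26 and 18.3 CPM at 1 day, against 51.3 and 40.2 CPM in uninjured libraries (log2 fold change -1.76, SE 0.32, adjusted p = 0.0129). The arterial transcription factor Sox17 had 18.7, 10.03 and 17.99 CPM at 1 day, against 29.5 and 32.4 CPM in uninjured libraries, and was not called (adjusted p = 0.209). For Vwf, the clotting protein von Willebrand factor, the groups overlapped, with 178, 75.5 and 114 CPM at 1 day and 189 and 158 CPM in uninjured libraries.

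Among the pericyte genes, Rgs5, a regulator of G-protein signals, had 403, 465 and 518 CPM at 1 day, against 1083 and 917 CPM in uninjured libraries, with means of 462 ± 57.4 CPM at 1 day (SD, n = 3) and 999.9 ± 117 CPM in uninjured libraries (SD, n = 2), and the log2 fold change was -1.11 (SE 0.15, adjusted p = 0.00269). It was the only pericyte member of 7 that edgeR's test called at 1 day in the reported fit. DESeq2 also called Abcc9 and Vtn (adjusted p = 0.00295 and 0.0435), and Abcc9 was called as well by limma-voom (adjusted p = 0.0331), with both other scalings, with no filter and with the replicate block. The neighbours Abcc9 and Kcnj8, which lie side by side on chromosome 6 and encode the regulatory and pore subunits of an ATP-sensitive potassium channel, were also below both uninjured libraries. Abcc9 had 11.4, 6.90 and 19.8 CPM at 1 day, against 41.7 and 34.5 CPM in uninjured libraries (log2 fold change -1.58, SE 0.38, adjusted p = 0.0504). Kcnj8 had 0, 4.57 and 0.678 CPM at 1 day, against 9.72 and 7.06 CPM in uninjured libraries (adjusted p = 0.355). Vtn, the secreted adhesion protein vitronectin, had 20.5, 19.0 and 19.8 CPM at 1 day, against 30.9 and 41.8 CPM in uninjured libraries (log2 fold change -0.88, SE 0.28, adjusted p = 0.135). The receptor Pdgfrb, for the platelet-derived growth factor that recruits pericytes, had 21.4, 27.8 and 20.5 CPM at 1 day, against 30.3 and 28.3 CPM in uninjured libraries (adjusted p = 0.648). The other two pericyte genes, the receptor Notch3 and the proteoglycan Cspg4 (NG2, also of oligodendrocyte precursors), overlapped between the groups and had log2 fold changes of -0.02 and 0.09. Notch3 had 81.5, 53.9 and 69.7 CPM at 1 day and 65.4 and 73.4 CPM in uninjured libraries, and Cspg4 had 35.0, 12.9 and 23.3 CPM at 1 day and 26.8 and 17.9 CPM in uninjured libraries.

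None of the 4 genes of the smooth muscle contractile apparatus was called at 1 day, and all 4 overlapped between the groups, with log2 fold changes between -0.52 (Tagln) and -0.10 (Des). Acta2, the smooth muscle actin, had 95.9, 36.7 and 50.9 CPM at 1 day and 55.6 and 80.8 CPM in uninjured libraries. Myh11, the smooth muscle myosin heavy chain, had 303, 154 and 253 CPM at 1 day and 306 and 211 CPM in uninjured libraries. Replicates 1 and 3 of day 1 lay between the uninjured values of Myh11, and replicate 2 lay below both. Per library, the endothelial sum was 4.85, 7.49 and 5.32 times the smooth muscle sum at 1 day, against 9.51 and 10.4 times in uninjured libraries. The pericyte sum was 1.39, 2.89 and 2.08 times the smooth muscle sum at 1 day, against 3.39 and 3.59 times in uninjured libraries, so neither ratio overlapped. The endothelial sum stood at 3.50, 2.59 and 2.56 times the pericyte sum at 1 day and at 2.81 and 2.90 times in uninjured libraries, which overlap. These ratios are descriptions led by the abundant genes of each sum, such as Rgs5 and Myh11, and the difference between the lists was not tested.

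**Figure D2:**
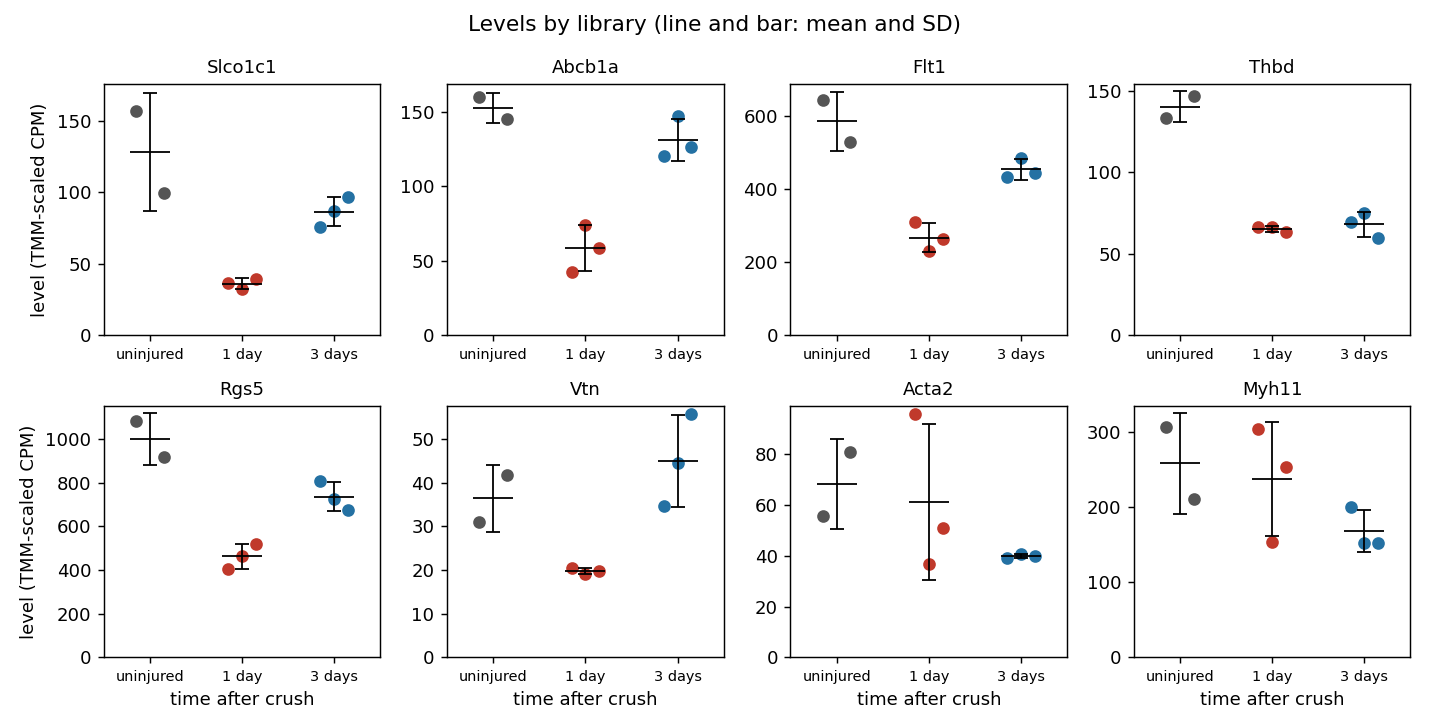
Levels (TMM-scaled CPM, each axis from 0) of 8 members in the uninjured, 1 day and 3 day libraries: points are libraries, and lines with bars are the mean and SD of each group (n = 2, 3 and 3). Slco1c1, Abcb1a, Flt1, Rgs5 and Vtn have their lowest group at 1 day, Thbd is low at 1 and at 3 days, and Acta2 and Myh11 overlap between 1 day and uninjured.

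The count of 13 rested on the uninjured pair: it was 2 without uninjured replicate 1, which left Slco1c1 and Ly6c1, and 6 without uninjured replicate 2, which left Flt1, Ptprb, Slco1a4, Slco1c1, Abcb1a and Itm2a, while the median of the 23 stayed between -1.02 and -1.15 over all single libraries left out. Slco1c1 and Rgs5 were called under all 16 alternatives; without uninjured replicate 1 the adjusted p of Flt1 was 0.0552, of Abcb1a 0.0669, of Thbd 0.0694 and of Cdh5 0.111, and the calls of Pecam1, Emcn, Tek and Ramp2 were also lost without 1 or more libraries of day 1 or day 3. Beside the alternatives given above, leaving out replicate 3 of day 1 added Abcc9 to the mural calls (log2 fold change -2.06, adjusted p = 0.0159), and leaving out replicate 2 added Kcnj8 (log2 fold change -4.59, adjusted p = 0.0492). Mfsd2a was added without replicate 2 of day 1 (adjusted p = 0.0139) and Slc2a1 without replicate 2 of day 3 (adjusted p = 0.0432). The count of 13 did not rest on the uninjured pair alone. It was also 6 with the libraries of the 2 groups alone, which keep both uninjured replicates, and 9 without replicate 3 of day 3.

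The wider gene lists of vessels were read beside the members. Of 31 further endothelial genes tested, 7 fell at 1 day and 0 rose, with a median log2 fold change of -0.90. Adgrf5, an adhesion receptor of endothelium, had 233, 262 and 303 CPM at 1 day, against 711 and 575 CPM in uninjured libraries (log2 fold change -1.27, adjusted p = 0.00269). Cav1 and Cavin2, which build caveolae, fell by 1.65 and 1.89 on the log2 scale (adjusted p = 0.00549 and 0.00669). Of 22 further barrier genes, 2 fell, the organic anion carrier Slc22a8 and the proteoglycan Spock2, and 0 rose. Of these 22, 16 had a negative estimate and 6 a positive one, with a median log2 fold change of -0.74. At an unadjusted p under 0.05 in edgeR's test, 10 were lower and 2 higher, against 7.47% and 7.3% of all tested genes. Of 14 vascular ligands, 1 fell and 0 rose. It was Cxcl12, a chemokine of endothelium and stroma, with 26.4, 50.3 and 31.2 CPM at 1 day, against 123 and 115 CPM in uninjured libraries (log2 fold change -1.72, adjusted p = 0.00301). Of 21 further mural genes and 12 genes of the basement membrane, 0 were called in edgeR's test. The 21 mural genes had 18 negative estimates and 3 positive ones, with a median log2 fold change of -0.47. At an unadjusted p under 0.05 in edgeR's test, 2 of the 21 mural genes were lower and 0 higher. Of the 12 basement membrane genes, 9 were lower and 1 higher at that p, against 7.47% and 7.3% of all tested genes. The mean summed level of these 12 at 1 day was 1.15 times the uninjured mean, with overlapping libraries. Of 9 genes of activated and venous endothelium, Selp fell and Icam1 rose, a gene that microglia also express. Without uninjured replicate 1, Adgrf5 was the 1 further endothelial gene still called, and the calls of Slc22a8, Spock2, Selp and Icam1 were lost, while that of Cxcl12 held under all 16 alternatives.

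Genes of other cell types moved as well. The 8 choroid plexus markers summed to 6.08, 113 and 7.58 CPM at 1 day, against 9692 and 852 CPM in uninjured libraries, with 3 of 8 called lower (8 by DESeq2, and 0 to 5 over the single libraries left out) and Folr1 and Otx2 at 0 in all libraries of day 1. Within the uninjured pair, the choroid plexus sums differed widely and the endothelial sums, given above, lay close together. Between the groups, both sums were lower in every library of day 1 than in either uninjured library. The 8 fibroblast markers summed to 18.1, 17.6 and 20.6 CPM at 1 day, against 44.2 and 44.7 CPM in uninjured libraries, with Col1a2 and Col6a1 called lower. Col1a2 kept that call under 14 of 16 alternatives and Col6a1 under 8 of 16. The 10 astrocyte markers summed to 107, 94.6 and 152 CPM at 1 day and 159 and 130.4 CPM in uninjured libraries, with Gjb6 called lower. The 6 monocyte markers summed to 248, 287 and 259.7 CPM at 1 day, against 569 and 597 CPM in uninjured libraries, with 1 of 3 tested called. It was Fn1, the matrix protein fibronectin, which is not particular to monocytes and made up most of that sum, with 238, 262 and 252 CPM at 1 day, against 558 and 591 CPM in uninjured libraries (log2 fold change -1.20, adjusted p = 0.00324, called under all 16 alternatives). The 6 neutrophil markers summed to 65.9, 137 and 49.5 CPM at 1 day, against 44.2 and 35.8 CPM in uninjured libraries, with 0 of 5 tested called by edgeR's test, 1 called higher by DESeq2 and 1 higher at an unadjusted p under 0.05, as 7.3% of all tested genes were. The 6 markers of border macrophages summed to 689, 521 and 773 CPM at 1 day and 713 and 580.2 CPM in uninjured libraries, with 0 called and 0 at an unadjusted p under 0.05. The 5 erythroid markers summed to 1.48, 1.04 and 1.36 CPM at 1 day and 6.09 and 4.74 CPM in uninjured libraries, with 0 of 3 tested called by edgeR's test and 2 lower at an unadjusted p under 0.05. The 12 microglial markers summed to 15199.7, 16515 and 13306 CPM at 1 day, against 9043 and 12318 CPM in uninjured libraries. Of these, 1 was called: Itgam, which encodes the bead target CD11b, rose to 1366, 1133 and 1347 CPM at 1 day, against 597 and 419 CPM in uninjured libraries (log2 fold change 1.34, adjusted p = 0.00173). The estimate was positive for 11 of the 12 microglial markers, with a median log2 fold change of 0.51. At an unadjusted p under 0.05 in edgeR's test, 9 were higher and 0 lower, against 7.3% and 7.47% of all tested genes. As a percentage of the microglial sum, the endothelial sum was 13.2%, 9.27% and 12.9% at 1 day, against 40.0% and 26.4% in uninjured libraries. The part of any of these in the endothelial result was not tested.

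At 3 days after the crush, 1 of the 23 endothelial members fell relative to uninjured mice and 0 rose, against 0.983% and 2.49% of all tested genes. The median log2 fold change was -0.37 for the endothelial members, -0.29 for the mural members and -0.00 for all tested genes. Of the 11 mural members, 0 were called in either direction by edgeR's quasi-likelihood test, and DESeq2 called 1 lower (Rgs5). At an unadjusted p under 0.05, 3 mural members were lower and 1 was higher, against 6.6% and 9.21% of all tested genes. In 12 of 23 endothelial and 5 of 11 mural members every library of day 3 lay below both uninjured libraries, against 19.3% of all tested genes. The comparisons at 1 and at 3 days share the uninjured pair.

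The gene that fell was Thbd. It had 69.4, 74.8 and 59.7 CPM at 3 days, against 133 and 147 CPM in uninjured libraries, and its log2 fold change was -1.04 (SE 0.18, adjusted p = 0.00578). Its 3 day values lie beside those of 1 day and well below the uninjured pair. The call was lost without uninjured replicate 1 (adjusted p = 0.0549) or without uninjured replicate 2 (adjusted p = 0.0709), with log2 fold changes of -1.12 and -0.97. Without replicate 2 of day 1, Ptprb and Vwf were called as well (adjusted p = 0.0490 and 0.0382). With the libraries of the 2 groups alone, edgeR's test also called Tek and Vwf lower (adjusted p = 0.0366 and 0.0223).

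Several abundant endothelial genes stayed below both uninjured libraries without being called in the reported fit. Flt1 had 434, 486 and 444 CPM at 3 days, against 644 and 529 CPM in uninjured libraries (log2 fold change -0.37, SE 0.16, adjusted p = 0.277). Ptprb had 576, 596 and 557 CPM at 3 days, against 888 and 724 CPM in uninjured libraries (log2 fold change -0.48, SE 0.18, adjusted p = 0.196). Tek had 43.4, 60.8 and 52.6 CPM at 3 days, against 96.7 and 79.7 CPM in uninjured libraries (log2 fold change -0.76, SE 0.27, adjusted p = 0.167). In all 3 the groups did not overlap. Cdh5 had 89.1, 87.4 and 76.4 CPM at 3 days, against 120.0 and 124 CPM in uninjured libraries (adjusted p = 0.240), and Vwf had 107, 117 and 87.2 CPM at 3 days, against 189 and 158 CPM in uninjured libraries (adjusted p = 0.180). Of the 5 barrier carriers, Slco1c1 had 76.1, 87.1 and 96.7 CPM at 3 days, against 157 and 99.3 CPM in uninjured libraries, so that its groups did not overlap (log2 fold change -0.57, SE 0.22, adjusted p = 0.211). Slco1a4 had 137, 212 and 159 CPM at 3 days, against 260.0 and 202 CPM in uninjured libraries, with 1 library of day 3 between the uninjured values (log2 fold change -0.45, SE 0.21, adjusted p = 0.317). The other 3 carriers, Slc2a1, Mfsd2a and Abcb1a, and the surface genes Pecam1 and Ly6c1 overlapped with uninjured libraries, with log2 fold changes of 0.13, -0.03, -0.22, -0.05 and -0.11. A p that misses the threshold does not show that these levels were equal, and the standard errors of these estimates ran from 0.18 to 0.42.

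The pericyte genes took both signs at 3 days. Rgs5 had 806, 727 and 673 CPM at 3 days, against 1083 and 917 CPM in uninjured libraries, each library below the uninjured pair (log2 fold change -0.44, SE 0.15, adjusted p = 0.151). Cspg4 had 47.5, 39.8 and 40.7 CPM at 3 days, against 26.8 and 17.9 CPM in uninjured libraries (log2 fold change 0.93, SE 0.37, adjusted p = 0.219), and Pdgfrb had 38.3, 37.7 and 47.7 CPM at 3 days, against 30.3 and 28.3 CPM in uninjured libraries (log2 fold change 0.49, SE 0.27, adjusted p = 0.423). Together with Notch3 (92.9, 73.9 and 79.5 CPM at 3 days), these are the 3 mural genes with every library of day 3 above both uninjured libraries, as 20.1% of all tested genes were. The smooth muscle genes Acta2 and Myh11 were below the uninjured pair: Acta2 had 39.0, 40.7 and 40.0 CPM at 3 days, against 55.6 and 80.8 CPM in uninjured libraries (log2 fold change -0.77, SE 0.32, adjusted p = 0.246). Myh11 had 200.1, 152 and 152 CPM at 3 days, against 306 and 211 CPM in uninjured libraries (log2 fold change -0.62, SE 0.25, adjusted p = 0.220). With the libraries of the 2 groups alone, edgeR's test called Acta2 lower and Cspg4 higher (adjusted p = 0.0419 and 0.0401). Tagln, an actin-binding protein, had 9.87, 7.74 and 3.47 CPM at 3 days and 9.19 and 11.4 CPM in uninjured libraries, and Des, the intermediate filament of muscle, had 8.56, 5.81 and 8.23 CPM at 3 days and 9.35 and 9.12 CPM in uninjured libraries.

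In the wider lists, 0 of 31 further endothelial genes were called at 3 days against uninjured mice by edgeR's test (5 were lower and 0 higher at an unadjusted p under 0.05, against 6.6% and 9.21% of all tested genes), with a median log2 fold change of -0.18. Mylk, the myosin light chain kinase of smooth muscle and other contractile cells, was the 1 of 21 further mural genes called, with 70.3, 63.9 and 63.9 CPM at 3 days, against 142 and 117 CPM in uninjured libraries (log2 fold change -0.97, adjusted p = 0.00814, lost without uninjured replicate 1). The iron exporter Slc40a1, which macrophages also express, was the 1 of 22 further barrier genes called (log2 fold change -1.29, adjusted p = 0.00799, lost without uninjured replicate 1 or replicate 3 of day 3). The choroid plexus markers summed to 6591, 1040.2 and 3774 CPM at 3 days and 9692 and 852 CPM in uninjured libraries, with 0 of 8 called by edgeR's test and 0 at an unadjusted p under 0.05. The microglial markers summed to 11219, 9517 and 10987 CPM at 3 days and 9043 and 12318 CPM in uninjured libraries, and 3 of 12 were called lower. P2ry12, a purine receptor of resting microglia, had 670.2, 619 and 692 CPM at 3 days, against 1211 and 1249 CPM in uninjured libraries (log2 fold change -0.90, adjusted p = 0.00139, called under all 16 alternatives). The bead target Itgam had 304, 294 and 297 CPM at 3 days, against 597 and 419 CPM in uninjured libraries (log2 fold change -0.77, adjusted p = 0.0165), and Siglech fell by 0.79 on the log2 scale (adjusted p = 0.0198). The astrocyte marker Slc1a3 and the border macrophage marker F13a1 were each the 1 gene called of their lists, both lower (log2 fold changes -0.87 and -0.92, adjusted p = 0.0429 and 0.0309). Itgam, Siglech, Slc1a3 and F13a1 lost their calls without replicate 1 or replicate 3 of day 3, and without 1 or either of the uninjured libraries. Of the tested monocyte and neutrophil markers, 0 of 3 and 0 of 5 were called, with 1 and 0 lower and 0 higher at an unadjusted p under 0.05. The part of these genes in the vascular values at 3 days was not tested.

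Between 1 and 3 days, 11 of the 23 endothelial members rose and 0 fell, against 5.24% of all tested genes that rose and 5.75% that fell. Of the 11 mural members, 4 rose (Rgs5, Vtn, Abcc9 and Pdgfrb, all of pericytes) and 0 fell. The median log2 fold change was 0.76 for the endothelial members, 0.67 for the mural members and 0.02 for all tested genes. In 16 of 23 endothelial members and 5 of 11 mural members every library of day 3 lay above all libraries of day 1, as it did for 16.1% of all tested genes. This comparison shares its libraries of day 1 with the comparison of day 1 and uninjured mice, so the rise is not independent of the lower level described above.

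All 5 barrier transporters rose. Slco1c1 had 76.1, 87.1 and 96.7 CPM at 3 days, against 37.0, 32.2 and 39.6 CPM at 1 day, and its log2 fold change was 1.26 (SE 0.21, adjusted p = 0.00149). Abcb1a had 120.2, 147 and 127 CPM at 3 days, against 42.8, 73.8 and 58.8 CPM at 1 day (log2 fold change 1.17, SE 0.20, adjusted p = 0.00195). Mfsd2a had 23.6, 22.3 and 16.3 CPM at 3 days, against 4.44, 10.8 and 5.24 CPM at 1 day (log2 fold change 1.61, SE 0.39, adjusted p = 0.0163). The lowest library of day 3 was above the highest of day 1 for each. Slc2a1 had 486, 337 and 479 CPM at 3 days, against 282, 246 and 239 CPM at 1 day (log2 fold change 0.77, SE 0.16, adjusted p = 0.00694), and Slco1a4 had 137, 212 and 159 CPM at 3 days, against 85.3, 118 and 97.5 CPM at 1 day (log2 fold change 0.76, SE 0.19, adjusted p = 0.0207).

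Of the surface genes, Pecam1, Cdh5 and Emcn rose. Pecam1 had 108, 115 and 107 CPM at 3 days, against 70.7, 64.5 and 58.1 CPM at 1 day (log2 fold change 0.77, SE 0.16, adjusted p = 0.00801), and Cdh5 rose by 0.68 on the log2 scale (adjusted p = 0.0427) and Emcn by 1.42 (adjusted p = 0.0207). Cldn5 had 21.5, 16.2 and 16.6 CPM at 3 days, against 13.6, 12.4 and 10.5 CPM at 1 day, and was not called (adjusted p = 0.260). Among the 8 receptors, Flt1 alone passed edgeR's test, with 434, 486 and 444 CPM at 3 days, against 310.1, 230.0 and 264 CPM at 1 day (log2 fold change 0.76, SE 0.15, adjusted p = 0.00432). DESeq2 also called Tie1 and Ramp2 (adjusted p = 0.0267 and 0.0367). Ly6c1 and Itm2a rose as well: Ly6c1 had 84.3, 96.0 and 87.2 CPM at 3 days, against 42.3, 48.1 and 45.0 CPM at 1 day (log2 fold change 0.98, SE 0.19, adjusted p = 0.00396), and Itm2a had 33.1, 39.4 and 39.2 CPM at 3 days, against 13.9, 8.26 and 18.3 CPM at 1 day (log2 fold change 1.46, SE 0.30, adjusted p = 0.00625). Thbd, the gene that fell at both times, had 69.4, 74.8 and 59.7 CPM at 3 days and 66.6, 66.1 and 63.3 CPM at 1 day, overlapping values with a log2 fold change of 0.06 (SE 0.17). Eng and Vwf also overlapped, with log2 fold changes of 0.01 and -0.24.

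Of the pericyte genes, Rgs5 had 806, 727 and 673 CPM at 3 days, against 403, 465 and 518 CPM at 1 day (log2 fold change 0.67, SE 0.14, adjusted p = 0.00706). Vtn had 34.6, 44.5 and 55.8 CPM at 3 days, against 20.5, 19.0 and 19.8 CPM at 1 day (log2 fold change 1.18, SE 0.26, adjusted p = 0.00872), and Abcc9 had 24.1, 32.4 and 36.9 CPM at 3 days, against 11.4, 6.90 and 19.8 CPM at 1 day (log2 fold change 1.29, SE 0.35, adjusted p = 0.0302). Pdgfrb had 38.3, 37.7 and 47.7 CPM at 3 days, against 21.4, 27.8 and 20.5 CPM at 1 day (log2 fold change 0.83, SE 0.24, adjusted p = 0.0436). None of these 4 genes overlapped between the times. The smooth muscle list had a median of -0.34, with Acta2 at 39.0, 40.7 and 40.0 CPM at 3 days and 95.9, 36.7 and 50.9 CPM at 1 day (log2 fold change -0.62, SE 0.29, adjusted p = 0.202) and Myh11 at 200.1, 152 and 152 CPM at 3 days and 303, 154 and 253 CPM at 1 day (log2 fold change -0.49, SE 0.22, adjusted p = 0.177). Both overlapped between the times, and both were called lower without replicate 2 of day 1 (adjusted p = 0.0382 for Acta2 and 0.0219 for Myh11), the library with the lowest values of that day. Per library, the endothelial sum was 10.3, 13.4 and 13.02 times the smooth muscle sum at 3 days, against 4.85, 7.49 and 5.32 times at 1 day.

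**Figure D3:**
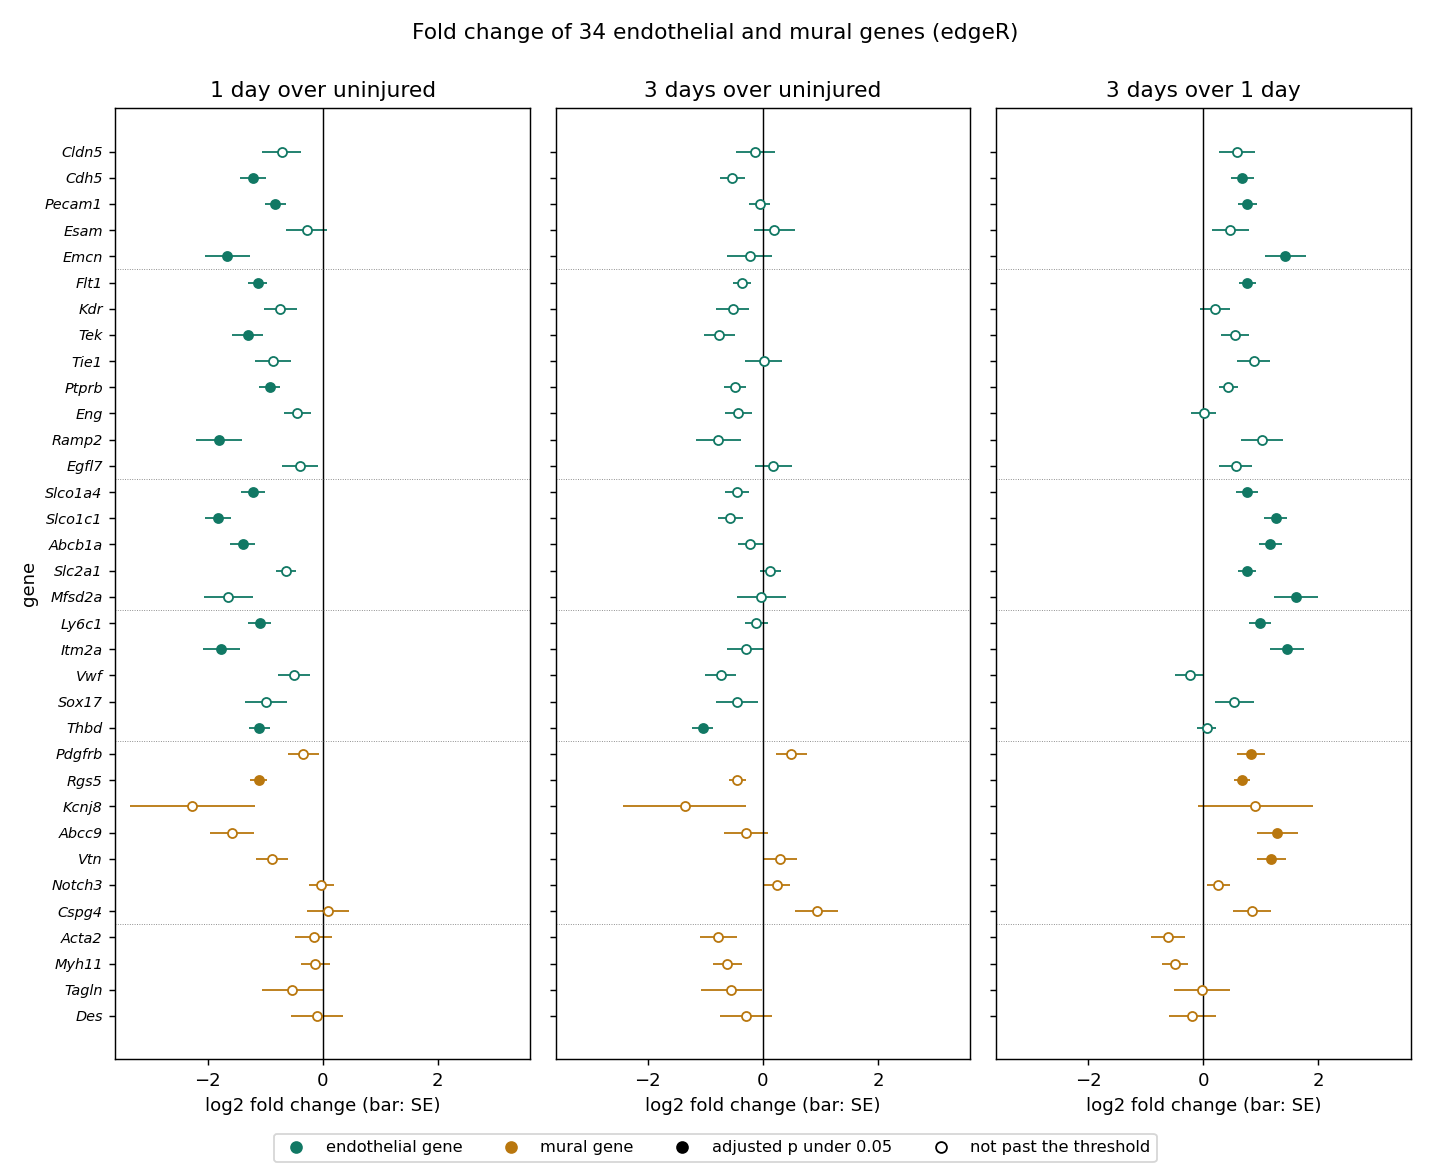
Log2 fold change with its SE for the 34 members in the comparisons of 1 day with uninjured, 3 days with uninjured and 3 days with 1 day; filled points have an adjusted p under 0.05, green is endothelial and orange mural. All endothelial points lie below 0 at 1 day, only Thbd is filled at 3 days against uninjured, and 11 endothelial and 4 mural points are filled above 0 between 1 and 3 days.

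The endothelial count of 11 was 7 without replicate 2 or without replicate 3 of day 3, and the mural count of 4 was 2 without replicate 2 and 1 without replicate 3 of day 3. Pecam1, Flt1, Slco1c1, Abcb1a, Ly6c1, Itm2a and Rgs5 were called under all 16 alternatives, whereas Cdh5 and Pdgfrb lost their calls under 10 of 16, with the highest adjusted p without replicate 1 of day 3 for Cdh5 (0.129) and without replicate 3 of day 3 for Pdgfrb (0.183).

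Of 31 further endothelial genes, 12 rose between 1 and 3 days and 0 fell, with a median log2 fold change of 0.71, and single libraries left out gave counts of 2 (without replicate 3 of day 3) to 10. Podxl, a sialomucin of the vessel lumen, had 246, 234 and 243 CPM at 3 days, against 117, 138 and 129.6 CPM at 1 day (log2 fold change 0.91, adjusted p = 0.000843). Adgrf5 rose by 0.75 on the log2 scale (adjusted p = 0.00731), and the sphingosine phosphate receptor S1pr1 by 0.98 (adjusted p = 0.00807). Of 22 further barrier genes, 4 rose and 1 fell. Slc22a8 had 46.7, 36.8 and 60.8 CPM at 3 days, against 6.78, 6.18 and 15.03 CPM at 1 day (log2 fold change 2.36, adjusted p = 0.000722), and Tjp1, a junction scaffold that is not particular to vessels, fell by 0.53 on the log2 scale (adjusted p = 0.0105). Of 14 vascular ligands, Cxcl12 and Vegfa rose and Pdgfb fell. Of 21 further mural genes, 1 fell (Mylk) and 0 rose. Cxcl12 had 100.2, 93.5 and 89.6 CPM at 3 days, against 26.4, 50.3 and 31.2 CPM at 1 day (log2 fold change 1.39, adjusted p = 0.00131). Of 9 genes of activated and venous endothelium, 2 rose and 2 fell. Selp and Ch25h rose by 3.69 and 2.61 on the log2 scale, and Icam1, also expressed by microglia, fell by 0.74. Of 12 genes of the basement membrane, 1 rose (Lama4, log2 fold change 1.47) and 0 fell. Icam1 was called under all 16 alternatives, Ch25h under 13, Selp under 11 and Lama4 under 8. Without replicate 3 of day 3, the calls of S1pr1, Tjp1, Vegfa, Pdgfb, Mylk, Selp and Lama4 were lost.

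Other cell types moved between these times too. The choroid plexus markers summed to 6591, 1040.2 and 3774 CPM at 3 days, against 6.08, 113 and 7.58 CPM at 1 day, with 5 of 8 called higher (8 by DESeq2, and 2 to 6 over the single libraries left out). The microglial markers summed to 11219, 9517 and 10987 CPM at 3 days, against 15199.7, 16515 and 13306 CPM at 1 day, with 5 of 12 called lower. Itgam had 304, 294 and 297 CPM at 3 days, against 1366, 1133 and 1347 CPM at 1 day (log2 fold change -2.10, adjusted p = 2.57e-06). Fn1 rose by 0.73 on the log2 scale (adjusted p = 0.00878), whereas the neutrophil marker S100a8 and the border macrophage marker F13a1 fell by 2.26 and 1.07 (adjusted p = 0.00431 and 0.00337). The fibroblast markers Col1a2 and Col6a1 were called higher, as was the astrocyte marker Gjb6, and the astrocyte marker Slc1a3 was called lower. Col1a2 and Col6a1 each kept that call under 8 of 16 alternatives, Gjb6 under 9 of 15 and Slc1a3 under 14 of 16. The endothelial sum, 2649, 2762 and 2654 CPM at 3 days, was 23.6%, 29.0% and 24.2% of the microglial sum, against 13.2%, 9.27% and 12.9% at 1 day. Within day 3, the endothelial sums varied little (SD 63.6 CPM) and the choroid plexus sums of the same libraries varied widely. Between the times, both sums were higher in every library of day 3 than in any library of day 1. The part of these cell types in the rise was not tested.

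**Figure D4:**
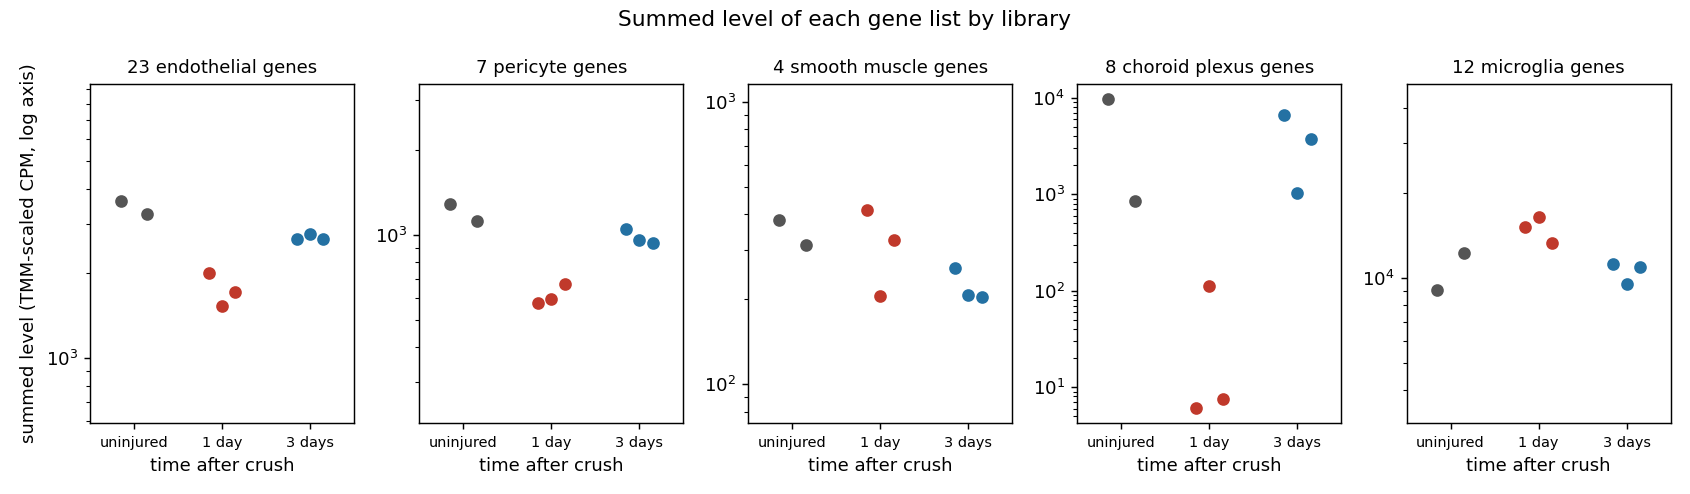
Summed level (TMM-scaled CPM, log axis) of the 23 endothelial, 7 pericyte and 4 smooth muscle members and of 8 choroid plexus and 12 microglial markers in each library (points), by group. The endothelial and pericyte sums are lowest at 1 day, the smooth muscle sums overlap between 1 day and uninjured, and the choroid plexus sums spread the most within a group.

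As a measure of the spread among libraries, the median coefficient of variation of the endothelial members was 24.4% at 1 day (n = 3), 13.4% at 3 days (n = 3) and 14.3% in uninjured libraries (n = 2), and that of the mural members was 29.8% at 1 day, 16.4% at 3 days and 15.1% in uninjured libraries. Of the 34 members, 10 share exonic bases with another annotated gene, 8 of them on the opposite strand. Since the strand setting of the counting is not given in the sources used here, reads of these pairs cannot be told apart, for example 1241 bases of Tagln and 553 of Abcb1a, which also has a close paralogue, Abcb1b.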

How the data were processed

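The members and the gene lists were chosen with earlier results of these data known. The authors deposited raw counts of reads for each Ensembl gene in a single table with 8 library columns, made with FastQC, STAR and HTSeq on mouse build mm9, per the submitters' processing notes. Tool versions, annotation and strandedness of counting were not given in the sources used here. Per the labels' protocols, RNA was column-extracted and linearly amplified. Sample labels gave the groups, and column names gave the samples.

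GENCODE M21 named 25925 of the 26062 gene IDs, which left 0.127% of all counts unnamed, and 234 of 238 listed genes matched 1 ID. It also gave exonic lengths. Its build is not mm9, so coordinates of counted genes are left out. The libraries of a group varied by more than sampling noise (chi-square per degree of freedom between 31.4 and 64.8) and were all kept as replicates.

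The test was edgeR's quasi-likelihood F-test (edgeR 4.0.16, R 4.3.3) after filterByExpr by group (minimum count 10) and TMM scaling. The fit was robust and held all 8 libraries. Its code was also run on counts simulated with the spread that the fit itself estimates. Such a run cannot show whether these data meet the model or how far results rest on the uninjured pair. P-values were Benjamini-Hochberg adjusted over 17390 genes and called under 0.05. The biological coefficient of variation was 51.1%. The SE given for a log2 fold change equals the estimate divided by the square root of F. All 34 members are named. From each other list up to 3 called genes with the smallest p were named per comparison, and Otx2, Plvap and Ly6c2 after their values were seen. Alternatives were DESeq2 1.42.0, limma-voom (limma 3.58.1), other scalings and filters, the libraries of 2 groups alone, the replicate number as a block, and each library left out.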

Additional observations from a re-analysis of the deposited data

Results flagged for a closer look

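In 15 of the 34 members the effect at 3 days differed from the effect at 1 day, both taken against the same uninjured pair. The test of that difference is the contrast of day 3 with day 1 in edgeR's quasi-likelihood fit, with the threshold of 0.05 on the Benjamini-Hochberg adjusted p. The effect at 3 days less that at 1 day was, on the log2 scale, 1.61 for Mfsd2a, 1.46 for Itm2a, 1.42 for Emcn, 1.29 for Abcc9, 1.26 for Slco1c1, 1.18 for Vtn and 1.17 for Abcb1a. It was 0.98 for Ly6c1, 0.83 for Pdgfrb, 0.77 for Pecam1, 0.77 for Slc2a1, 0.76 for Flt1, 0.76 for Slco1a4, 0.68 for Cdh5 and 0.67 for Rgs5. These 15 are the 11 endothelial and 4 mural members called higher between 1 and 3 days, so their positive sign follows from that call. Of all tested genes, 5.24% were called higher and 5.75% lower in that contrast. In each of the 15, every library of day 3 lay above every library of day 1, as it did for 16.1% of all tested genes. The 15 were picked by their call in the same libraries, so this separation adds no support. No library was tested as standing apart within its group, since the groups hold 2 or 3 libraries.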

How the results depend on the processing

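All settings listed for the processing were run, and they were applied to the lists outside the members after the data had been seen. At 1 day against uninjured mice, the endothelial members called lower numbered 13 in the reported fit, 6 with the libraries of the 2 groups alone, and 2 to 13 with single libraries left out. The mural members called lower numbered 1 in the reported fit, 2 with DESeq2 size factors in edgeR, with library size alone, with limma-voom and with no filter, 3 with DESeq2, and 1 to 2 with single libraries left out. Genes called over the whole table numbered 308 in the reported fit, 816 with DESeq2, 110 with the 2 groups alone, and 39 to 368 with single libraries left out. At 3 days against uninjured mice, the endothelial members called lower numbered 1, 3 with the 2 groups alone, and 0 to 3 with single libraries left out. The mural members called lower numbered 0, 1 with DESeq2 and 1 with the 2 groups alone, which also called 1 higher, against 0. The whole table gave 604 calls, 1308 with DESeq2, 1345 with the 2 groups alone, and 108 to 982 with single libraries left out. Between 1 and 3 days, the endothelial members called higher numbered 11, and 7 to 10 with single libraries left out. The mural members called higher numbered 4, 2 with the 2 groups alone, and 1 to 4 with single libraries left out, and those called lower 0, and 0 to 2 with single libraries left out. The whole table gave 1912 calls, and 747 to 2362 with single libraries left out. Leaving out a library leaves fewer samples, and other causes were not tested. The deviations from the group means of libraries with the same replicate number correlated between -0.068 and 0.091. In groups of 2 or 3 libraries such deviations constrain each other, so these values cannot show whether the libraries were paired. With the number as a block, the whole table gave 301, 424 and 1700 calls in the 3 comparisons, and the members gave 11 endothelial and 2 mural lower at 1 day, 1 and 0 lower at 3 days, and 10 and 3 higher between the times. Scaling by library size alone moved the median of all genes by -0.12 at 1 day and by -0.15 at 3 days, and the endothelial median relative to all genes was -1.16 and -0.37 under it, against -1.16 and -0.37 in the reported fit. The split of calls over the whole table was then 233 lower and 46 higher at 1 day, against 202 and 106, and 244 lower and 317 higher at 3 days, against 171 and 433; limma-voom gave 164 lower and 187 higher at 1 day. Of 544 member values per comparison, 476, 516 and 487 kept both direction and side of the threshold. The sign changed for 5, 8 and 4 members, none of them called. With single libraries left out, the log2 fold changes of these ran over Esam -0.58 to 0.10, Notch3 -0.16 to 0.078, Cspg4 -0.30 to 0.40, Acta2 -0.64 to 0.14 and Myh11 -0.37 to 0.16 at 1 day, over Cldn5 -0.31 to 0.065, Pecam1 -0.14 to 0.0079, Esam -0.11 to 0.57, Emcn -0.43 to 0.014, Tie1 -0.25 to 0.11, Slc2a1 0.0049 to 0.23, Mfsd2a -0.23 to 0.19 and Ly6c1 -0.35 to 0.16 at 3 days, and over Eng -0.13 to 0.26, Vwf -0.50 to 0.13, Thbd -0.017 to 0.14 and Tagln -0.35 to 0.30 between the times. Other changes of sign were Cspg4 at 1 day (-0.008, library size alone), and at 3 days Slc2a1 (-0.024, library size alone), Mfsd2a (0.15, block) and Tie1 (-0.026 with DESeq2 size factors and with DESeq2, -0.13 with library size alone, -0.0086 with limma-voom, -0.047 with no filter, -0.036 with the block). Between the times, Eng was -0.003 with DESeq2 size factors and with DESeq2, -0.025 with library size alone and -0.008 with no filter. Kcnj8 had the lowest counts of the members in sum, with 0, 57 and 11 at 1 day and 52, 25 and 56 at 3 days, against 182 and 137 in uninjured libraries, and what depth adds to its error was not tested.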
